A study of Mus musculus with 12 samples.

Results

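The clustered protocadherins were followed through the hypothalamus of Asmt-knockout and swimming mice. They were taken as the probes of the deposited normalized table whose gene symbol begins with Pcdha, Pcdhb or Pcdhg, which gave 40 probes of 36 genes among the 56605 probes and 27308 gene symbols of a single-color Agilent mouse array. Total RNA of the hypothalamus of 12 male C57BL/6 mice was measured, with 3 arrays per group. WT mice were wild-type littermates that did not swim, KO mice were homozygous Asmt knockouts that did not swim, exercised WT mice were wild-type littermates trained in a swimming program, and KE mice were Asmt knockouts trained in the same way. The knockout came from zygotes injected with Cas9 mRNA and a guide RNA, and the founders, which carried a deletion of 20 bp, were backcrossed to wild-type littermates for 3 generations. All mice are labelled with an age of 6 to 7 weeks, which the methods give as the age at which training began. Asmt encodes the last enzyme of melatonin synthesis, and the deletion is inherited through the germ line, so it is not confined to the hypothalamus.

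Clustered protocadherins are cadherin-like adhesion proteins of the neuronal surface. The genes stand in 3 neighbouring clusters, alpha (Pcdha), beta (Pcdhb) and gamma (Pcdhg), and each neuron transcribes its own small choice of them, so that a neuron can tell its own branches from those of its neighbours. In the alpha and gamma clusters a variable exon, with a promoter of its own, encodes the extracellular part and is spliced to constant exons that all members of the cluster share, whereas each beta gene is a single exon. Choice of a variable exon depends on its promoter methylation and on CTCF and cohesin, which join the promoter to a distant enhancer. The C-type isoforms, such as Pcdhac2 and Pcdhgc5, are not chosen at random and are transcribed by many neurons alike. RNA of whole tissue averages over these choices, and fewer cells with a given isoform cannot be told apart from less of its RNA per cell.

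The arrays lay on 2 slides, and this touches every comparison of swimming with no swimming. KO replicates 1 and 2 lay on slide 1 with all of WT, and KO replicate 3 lay on slide 2 with all swimmers. Through KO replicate 3 the slide touches KO versus WT as well. Principal component 1 of all tested probes carried 48.5% of the variance, and it placed the arrays of slide 1 between 29.5 and 47.4 and those of slide 2 between -40.2 (KO replicate 3) and -19.3. The share of spots that the scanner software called well above background ran from 61.6% to 67.9%. The probe of Asmt was not well above background on any array (normalized log2 signal 1.88 ± 0.02 in WT and 1.89 ± 0.03 in KO, SD, n = 3), so it gives no check of the genotype. The tissue label was checked with marker genes. All 14 hypothalamic neuropeptide genes on the list, such as Avp and Pomc, and all 9 neuronal genes were well above background on all 12 arrays, as were the 7 genes each of astrocytes, oligodendrocytes and microglia, the 6 of endothelium, the 6 of striatum, 5 of 6 of choroid plexus, and 5 of 7 of cortex and thalamus. The mean log2 signal of the neuronal list lay between 14.55 and 14.68 over the 12 arrays and that of the neuropeptide list between 13.09 and 13.45. The means lay between 12.77 and 12.93 for astrocytes, 13.21 and 13.64 for oligodendrocytes, 10.74 and 10.93 for microglia, 9.76 and 9.96 for endothelium, 7.70 and 9.05 for choroid plexus, and 8.75 and 9.49 for cortex and thalamus. The widest range within 1 group was that of the striatal list in exercised WT. This list was at 10.50, 10.84 and 11.74 on the 3 exercised WT arrays and between 10.39 and 10.99 on the other 9. The choroid plexus list ranged more widely than the striatal list in WT, KO and KE, for example from 7.70 to 8.85 in KO.

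What the probes can tell apart differs between the clusters. The array annotation places all 40 probes on chromosome 18 of mm9, in the order alpha, beta, gamma, with the first at chr18:37114742-37114801 and the last ending at 38001437. RefSeq (a table of assembly GRCm38.p6, used for names only) lists 58 clustered protocadherin genes. The array named a probe for all 22 beta genes, but for only 7 of 14 alpha genes and 7 of 22 gamma genes, and none was named for the C-type isoforms Pcdhgc3 and Pcdhgc4. Each of the 22 beta probes with a listed transcript listed 1 gene, and the second Pcdhb6 probe along the chromosome listed no RefSeq transcript. Both probes named Pcdhac2, in contrast, listed transcripts of Pcdha4, Pcdha9, Pcdhac1 and Pcdhac2, and both probes named Pcdhga9 listed transcripts of Pcdhga1, Pcdhga5, Pcdhga6 and Pcdhga9. Each pair also lay at the 3′ end of its cluster. Their signal is therefore given as that of RNA shared by several isoforms, and not as that of Pcdhac2 or Pcdhga9 alone. This reading rests on the listed transcripts and the positions, and the exons themselves were not checked against a genome here. The probe named Pcdha8 also listed Pcdha7 and the gene models Gm37013 and Gm38667, and that of Pcdha4 also Gm37013, whereas the probes of Pcdha9, Pcdha11 and Pcdha12 listed 1 gene each.

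Alpha and beta isoforms were readily measured in the hypothalamus, and single gamma isoforms were not. A probe was called detected on an array where the scanner software marked it as well above background. Of the 8 alpha probes, 7 were detected on all 12 arrays, namely those of Pcdha4, Pcdha8, Pcdha9, Pcdha11 and Pcdha12 and both named Pcdhac2. The probe of the C-type isoform Pcdhac1 was detected on none, at log2 signals between 1.81 and 2.10. Of the 23 beta probes, 18 were detected on all 12 arrays, 3 on some and 2 on none. The 18 covered Pcdhb3, Pcdhb4, Pcdhb6 to Pcdhb10, Pcdhb12 to Pcdhb18 and Pcdhb20 to Pcdhb22, with both probes of Pcdhb6. Pcdhb5 was detected on 9 arrays, Pcdhb2 on 6 and Pcdhb11 on 5, and Pcdhb1 and Pcdhb19 on none. In the gamma cluster only the 2 shared probes were detected on all 12 arrays. Of the 7 gamma probes that lay among the variable exons or at Pcdhgc5, 5 were detected on 1 to 4 arrays and 2 on none. These were Pcdhgb1 (4 arrays with one probe and none with the other), Pcdhga1 (3), Pcdhga5, Pcdhga10 and Pcdhga12 (1 each), and the C-type isoform Pcdhgc5 (none). For the 11 probes that were not tested, among them all of these gamma isoforms, no fold is given.

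**Figure D1:**
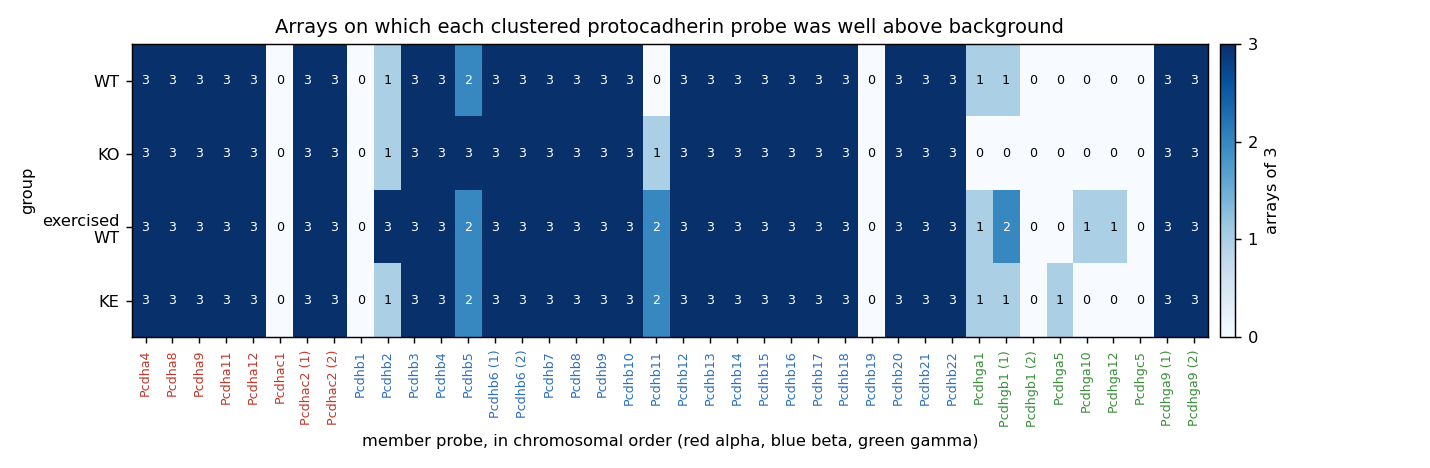
Number of arrays, of 3 in each group, on which each of the 40 clustered protocadherin probes was well above background, with the probes arranged along the chromosome and colored by cluster. Numbers in brackets tell apart 2 probes of 1 gene symbol. Nearly all alpha and beta columns are filled in all 4 groups, whereas in the gamma cluster only the 2 shared probes at the right end are.

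A few partial detections leaned toward one slide, and the share of all probes that do so was not counted. Pcdhb11 was detected on none of the 5 arrays of slide 1 and on 5 of the 7 of slide 2, KO replicate 3 included. Pcdhb2 was detected on 1 array of slide 1 and on 5 of slide 2, and on all 3 arrays in exercised WT only. Its log2 signal was nonetheless similar, at 4.19, 4.20 and 4.07 in WT and 4.48, 3.88 and 3.99 in exercised WT. Other partial detections did not lean this way. Pcdhb5 was detected on 4 of the 5 arrays of slide 1 and 5 of the 7 of slide 2, and Pcdhga1 on 1 and 2.

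For the comparisons, a probe was tested where it was detected on all 3 arrays of at least 1 group, which kept 35230 probes of the array and 29 members (7 alpha, 20 beta and 2 gamma). Differences are between group means of quantile-normalized log2 signal, tested with limma over all tested probes. The study's screening criterion, a difference of 2-fold or more at an unadjusted p no higher than 0.05, was met by 0 members in each of the 6 comparisons, with or without the slide in the model. Over all tested probes it was met by 0.227% in KO versus WT, by 1.21% and 2.19% in KE versus KO and exercised WT versus WT, by 2.74% in KE versus WT, 0.250% in KE versus exercised WT and 0.602% in the swimming by genotype interaction. No member (0 of 29) had a Benjamini-Hochberg adjusted p under 0.05 in limma either, where the share of all probes was 0.0199% in KE versus KO and 0% in the other 5 comparisons. By the methods' t-test, 4 members passed after adjustment in KE versus WT, named below, and 0 in the other comparisons it covers.

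At an unadjusted p under 0.05, members in the comparisons that cross the slides lay mostly lower in the swimmers, all of which lay on slide 2. KE versus WT also differs in genotype. In exercised WT versus WT 10 of 29 members (34.5%) passed, beside 25.9% of all probes. Of these, 9 were lower (31.0%, beside 14.2% of all probes). In KE versus KO 7 passed, all lower (24.1%, beside 21.1% of all probes in either direction and 13.0% lower). In KE versus WT 9 passed, all lower (31.0%, beside 30.4% in either direction and 17.9% lower). exercised WT versus WT and KE versus WT share the WT arrays, and KE versus KO and KE versus WT share the KE arrays. With the slide as a block, 1 member passed in exercised WT versus WT (6.17% of all probes), 1 in KE versus KO (9.06%) and 0 in KE versus WT (4.91%). In the comparisons within a swimming state, 1 member passed in KO versus WT (5.47% of all probes) and 1 in KE versus exercised WT (6.71%), and 2 passed in the interaction (7.76%). With the slide as a block these counts were 0 (5.48%), 1 (10.3%) and 2 (10.9%).

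Without the slide in the model, the medians of the 3 clusters differed. The median log2 difference of the 7 tested alpha probes was -0.38 for exercised WT versus WT, -0.25 for KE versus KO and -0.37 for KE versus WT, whereas the median of all tested probes was -0.04, -0.04 and -0.07. For the 20 beta probes it was -0.05, -0.06 and -0.08, and for the 2 shared gamma probes 0.18, 0.05 and 0.07. In KO versus WT the medians were -0.03 for alpha, -0.01 for beta and 0.02 for gamma, and in KE versus exercised WT they were 0.01, -0.04 and -0.11, with all probes at -0.01 in both. With the slide as a block, the alpha medians became -0.01, -0.04 and -0.02 for exercised WT versus WT, KE versus KO and KE versus WT. The beta medians became -0.0032, -0.0177 and -0.0019, so those of alpha and beta lay near 0. The gamma medians, of only 2 probes, became 0.0288, -0.0505 and -0.0785. In KE versus KO and KE versus WT they thus changed sign at a similar size. These medians are descriptions and were not tested.

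**Figure D2:**
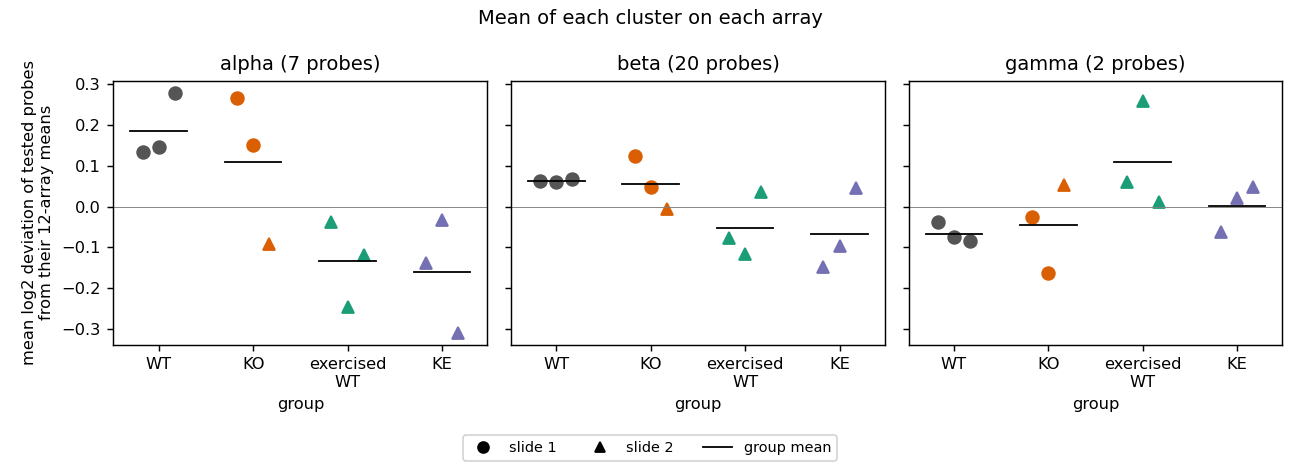
Mean deviation of the tested probes of each cluster from their own 12-array means, in log2 units, for each array, with groups on the x axis, a circle for slide 1, a triangle for slide 2 and a line at the group mean. In the alpha cluster the circles lie above the triangles, and KO replicate 3, the only KO triangle, lies with the exercised WT and KE arrays.

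The alpha isoforms were lower on slide 2 than on slide 1. Pcdha4 was at log2 signals of 7.01, 6.71 and 6.81 in WT, 7.08, 6.89 and 6.46 in KO, 6.43, 6.34 and 6.46 in exercised WT and 6.27, 6.40 and 6.21 in KE. The exercised WT and KE arrays lay below every array of slide 1, and so did KO replicate 3. Pcdha11 was at 5.83, 5.85 and 5.84 in WT, 5.92, 5.71 and 5.41 in KO, 5.49, 5.08 and 5.10 in exercised WT and 5.22, 5.39 and 5.12 in KE, and it was again the third KO mouse that lay with the swimmers. Pcdha8 was at 9.65, 9.58 and 9.61 in WT, 9.66, 9.53 and 9.25 in KO, 9.36, 9.04 and 9.28 in exercised WT and 9.21, 9.34 and 9.17 in KE. Pcdha9 was at 7.47, 7.46 and 7.50 in WT, 7.59, 7.60 and 7.33 in KO, 7.34, 6.95 and 7.31 in exercised WT and 7.31, 7.31 and 7.15 in KE. For these 4 probes the 5 arrays of slide 1 and the 7 of slide 2 did not overlap, which held in this direction for 11.4% of all tested probes and for 4 of the 29 members. Pcdha12 was more variable, at 6.71, 6.95 and 7.80 in WT, 7.14, 6.85 and 6.44 in KO, 6.50, 6.48 and 6.45 in exercised WT and 6.48, 6.79 and 5.94 in KE, and its slides overlapped.

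**Figure D3:**
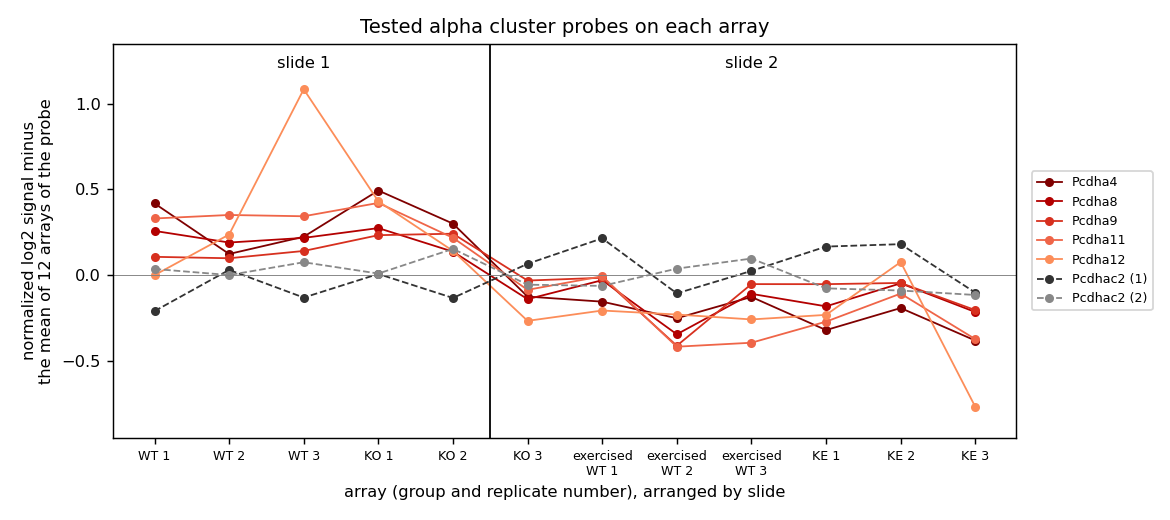
Normalized log2 signal of the 7 tested alpha probes on each array, less the 12-array mean of the probe, with arrays arranged by slide; lines join the values of 1 probe only to tell the probes apart. The 5 probes named for variable exons (solid) step down at the slide boundary between KO replicates 2 and 3. Of the 2 shared probes named Pcdhac2 (dashed), the first steps up there and the second down.

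Without the slide in the model, Pcdha11 and Pcdha4 had the smallest p of the cluster in KE versus KO and in KE versus WT, and Pcdha11 and Pcdha8 in exercised WT versus WT. Pcdha11 differed by -0.62 (standard error 0.14, limma adjusted p = 0.0933) in exercised WT versus WT, by -0.44 (standard error 0.14, adjusted p = 0.168) in KE versus KO and by -0.59 (standard error 0.14, adjusted p = 0.0621) in KE versus WT. Pcdha4 differed by -0.52 in KE versus KO (standard error 0.14, limma adjusted p = 0.147) and by -0.55 in KE versus WT (standard error 0.14, adjusted p = 0.0621). Pcdha8 differed by -0.38 in exercised WT versus WT (standard error 0.11, limma adjusted p = 0.0987). None of these kept an unadjusted p under 0.05 in the model with the slide. Pcdha11 then differed by -0.21 (standard error 0.21, limma adjusted p = 0.869) in exercised WT versus WT and by -0.17 (standard error 0.16, adjusted p = 0.851) in KE versus KO. Pcdha4 differed by -0.17 (standard error 0.13, adjusted p = 0.768) in KE versus KO and by 0.09 (standard error 0.16, adjusted p = 0.927) in exercised WT versus WT, and Pcdha8 by -0.04 (standard error 0.15, adjusted p = 0.973) in exercised WT versus WT.

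The slide itself was estimated in that model, in effect from KO replicate 3 against KO replicates 1 and 2. Pcdha4 differed by -0.52 on slide 2 from slide 1 (limma adjusted p = 0.0364), the only member of 29 with an adjusted p under 0.05 for the slide, beside 13.3% of all probes. At an unadjusted p under 0.05, 5 members were lower on slide 2 (Pcdha4, Pcdha8, Pcdha11, Pcdhb7 and Pcdhb9), beside 16.9% of all probes. Higher on slide 2 was 1 member (the first probe named Pcdhga9), beside 4881 of all 35230 tested probes. Leaving out KO replicate 3 removes the only array that separates swimming from the slide. The swimmers and the non-swimmers then lay on different slides altogether, and 12 members rather than 7 passed an unadjusted p of 0.05 in KE versus KO, beside 38.4% of all probes. Adjusted p-values of limma were then under 0.05 for Pcdha4, Pcdha8, Pcdha11 and Pcdhb18 in KE versus KO, beside 24.4% of all probes. They were under 0.05 also for Pcdha4, Pcdha8, Pcdha11, Pcdhb8, Pcdhb9 and the first Pcdhga9 probe in exercised WT versus WT, beside 18.0%, and for Pcdha4, Pcdha8 and Pcdha11 in KE versus WT, beside 23.2%. The 4 members with an adjusted p under 0.05 by the methods' t-test in KE versus WT were Pcdha4, Pcdha8, Pcdha11 and the second Pcdhac2 probe, beside 14.0% of all probes.

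The 2 shared alpha probes differed less than the 5 probes named for variable exons in the comparisons that cross the slides, and they disagreed with each other. The first probe named Pcdhac2 along the chromosome was at 12.18, 12.42 and 12.26 in WT, 12.39, 12.25 and 12.45 in KO, 12.60, 12.28 and 12.41 in exercised WT and 12.55, 12.57 and 12.29 in KE, and all groups overlapped. The second was at 12.23, 12.19 and 12.27 in WT, 12.20, 12.35 and 12.14 in KO, 12.13, 12.23 and 12.29 in exercised WT and 12.11, 12.10 and 12.08 in KE, where the KE arrays lay just below all others. Their signs were opposite for exercised WT versus WT (0.15 and -0.01), KE versus WT (0.19 and -0.13) and KE versus KO (0.10 and -0.13). In KE versus exercised WT, which lies within slide 2, the second differed by -0.12 (limma adjusted p = 0.785), and the first by 0.04. In the model with the slide, the first differed by 0.13 on slide 2 from slide 1 (adjusted p = 0.643) and the second by -0.14 (adjusted p = 0.316). Once the mean of each slide was removed, the 3 members most like the first probe over the 12 arrays were Pcdha11 (Pearson r = 0.73), Pcdha9 (r = 0.66) and Pcdha8 (r = 0.64). Those most like the second were the second Pcdhb6 probe (r = 0.83), Pcdhb3 (r = 0.70) and the second Pcdhga9 probe (r = 0.57). These are descriptions over 12 arrays that share slides and groups.

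The beta genes mostly varied little within a group. Over the 20 tested beta probes the median SD within a group was 0.11 on the log2 scale, beside 0.14 for all tested probes, and it ranged from 0.07 to 0.56, the highest for the dim probe of Pcdhb5. Differences in KE versus KO lay between -0.51 and 0.17, with 15 probes lower and 5 higher, and those in exercised WT versus WT between -0.59 and 0.17, with 13 lower and 7 higher. Pcdhb14 and Pcdhb17 were among the steadiest, with SDs of 0.07 and 0.08. Pcdhb17 was at 9.60, 9.64 and 9.55 in WT, 9.62, 9.44 and 9.67 in KO, 9.54, 9.65 and 9.53 in exercised WT and 9.49, 9.59 and 9.60 in KE. Pcdhb14 lay between 9.005 and 9.235 over the 12 arrays.

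Pcdhb18 was the only member with an unadjusted p under 0.05 in KE versus KO both without and with the slide in the model. It was at 8.73, 8.68 and 8.75 in KO and at 8.48, 8.43 and 8.55 in KE, with 8.69, 8.72 and 8.60 in WT and 8.52, 8.60 and 8.71 in exercised WT. The KE arrays lay below every KO and every WT array, and KO replicate 3, on the same slide as KE, was the highest of all. The difference in KE versus KO was -0.23 (standard error 0.06, limma adjusted p = 0.149) without the slide in the model and -0.26 (standard error 0.09, adjusted p = 0.430) with it. With the slide, the difference in effect sets KE against KO replicate 3 alone. Without the slide in the model, it lay between -0.27 and -0.20 when any 1 array was left out. In these fits the unadjusted p was under 0.05 in 12 of 12 cases. In exercised WT versus WT the groups overlapped. The interaction, which is the test of whether the 2 swimming differences differ, did not place Pcdhb18 among the members with an unadjusted p under 0.05.

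**Figure D4:**
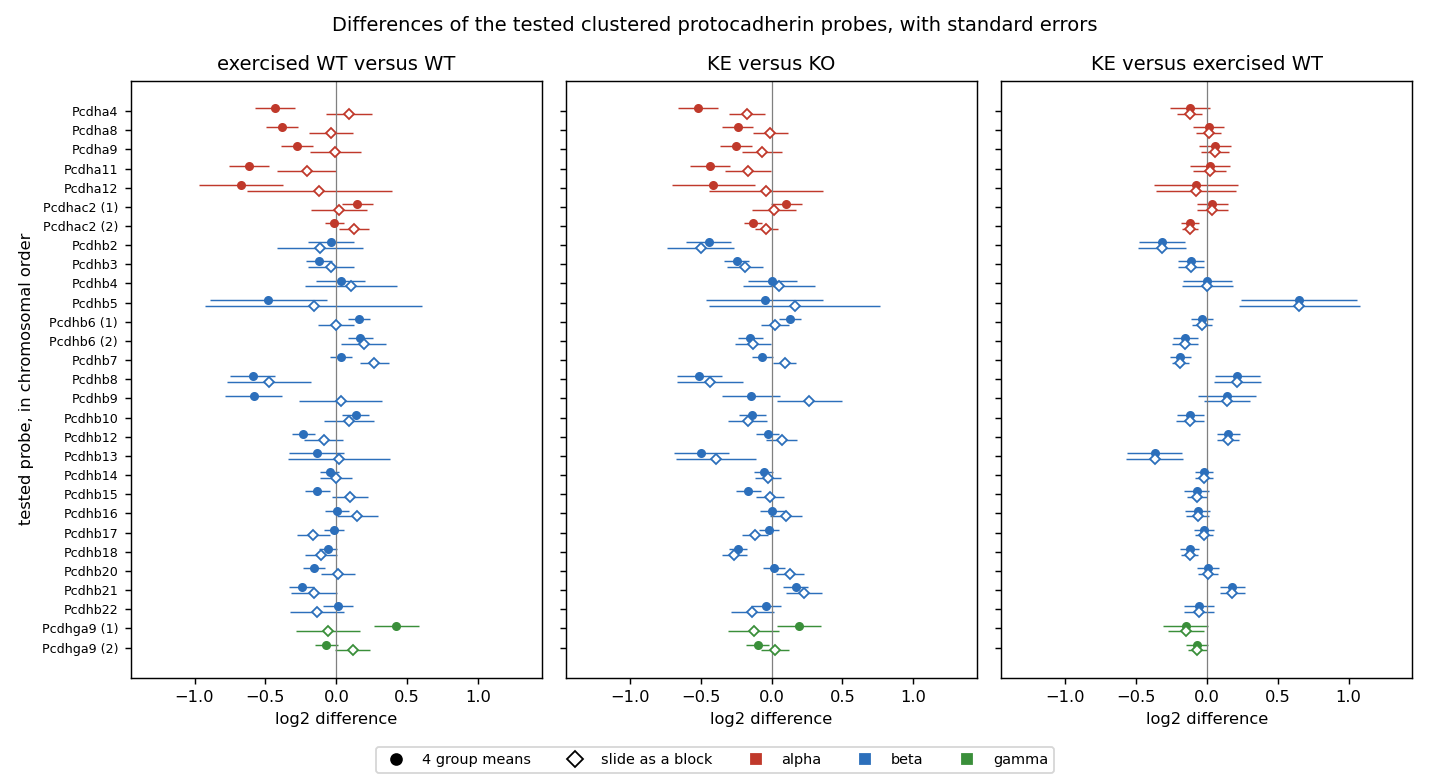
Log2 differences of the 29 tested probes with their standard errors from limma in exercised WT versus WT, KE versus KO and KE versus exercised WT; filled circles are from the model of 4 group means, open diamonds have the slide as a block, and colors mark the clusters. The alpha isoforms lie well below 0 in the first 2 panels only without the slide, and in KE versus exercised WT, within 1 slide, both models give the same differences.

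Pcdhb8, Pcdhb3 and Pcdhb12 had an unadjusted p under 0.05 only where the slide was not in the model. Pcdhb8 was at 5.01, 4.80 and 5.04 in WT, 5.01, 5.24 and 5.01 in KO, 4.53, 4.40 and 4.15 in exercised WT and 4.56, 4.26 and 4.91 in KE. All 6 swimmers lay below all KO mice, replicate 3 included. The probe was dim, and in KE replicate 2 its 4.26 lay near 4.13, the lowest signal well above background on that array. The size of its differences is therefore not well measured. Pcdhb8 differed by -0.59 in exercised WT versus WT (standard error 0.16, limma adjusted p = 0.0936) and by -0.51 in KE versus KO (standard error 0.16, adjusted p = 0.161). Once the slide was in the model it differed by -0.48 (standard error 0.30, adjusted p = 0.821) and -0.43 (standard error 0.23, adjusted p = 0.634). Neither then had an unadjusted p under 0.05, at similar differences with larger standard errors. Pcdhb3 was at 9.13, 9.19 and 9.23 in WT, 9.17, 9.28 and 9.14 in KO, 8.88, 9.06 and 9.24 in exercised WT and 8.856, 8.993 and 8.999 in KE. It differed by -0.24 in KE versus WT (standard error 0.09, limma adjusted p = 0.116), and by -0.15 (standard error 0.16, adjusted p = 0.9999) with the slide. Pcdhb12 was at 7.82, 8.09 and 7.84 in WT and 7.72, 7.64 and 7.68 in exercised WT, a difference of -0.23 (standard error 0.08, limma adjusted p = 0.123) that was -0.09 (standard error 0.14, adjusted p = 0.909) with the slide. Further beta probes that passed were Pcdhb13 (-0.49) and Pcdhb2 (-0.44) in KE versus KO, Pcdhb9 (-0.58) in exercised WT versus WT, and Pcdhb13 (-0.51) and Pcdhb15 (-0.21) in KE versus WT, all lower in the swimmers. None passed once the slide was in the model, where Pcdhb13 differed by -0.39 in KE versus KO and by -0.35 in KE versus WT, Pcdhb2 by -0.50, Pcdhb9 by 0.03 and Pcdhb15 by 0.02. Pcdhb2 was well above background on only 1 of 3 KO arrays and 1 of 3 KE arrays, so the size of its difference is not well measured.

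Within slide 2, only Pcdhb7 had an unadjusted p under 0.05 between the swimming genotypes. It was at 9.33, 9.33 and 9.30 in exercised WT and at 9.07, 9.18 and 9.15 in KE, and the groups did not overlap. In WT it was at 9.34, 9.34 and 9.19 and in KO at 9.22, 9.33 and 9.04. The KE versus exercised WT difference was -0.19 (standard error 0.08, limma adjusted p = 0.730) and, with the slide as a block, the same with an adjusted p = 0.379. Without the slide in the model, it kept an unadjusted p under 0.05 in 7 of the 12 fits that left out 1 array. It did not when arrays were scaled by their 75th percentile. On these exercised WT arrays, in the same order, the mean of the striatal marker list was at 10.50, 10.84 and 11.74 and Pcdhb7 at 9.33, 9.33 and 9.30. The part of that list in the difference was not tested. With the slide as a block Pcdhb7 also passed in exercised WT versus WT, at 0.27 (limma adjusted p = 0.796), where the model of group means gave 0.03. Of the alpha probes, Pcdha4 differed by -0.12 (limma adjusted p = 0.905) between the swimming genotypes. Pcdhb21 had the next smallest p of the beta probes in KE versus exercised WT, at 0.18 (limma adjusted p = 0.767), and the arrays of the 2 groups did not overlap.

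Between the genotypes that did not swim, Pcdhb21 alone had an unadjusted p under 0.05. It was at 10.24, 10.05 and 10.22 in WT, 10.10, 9.82 and 9.87 in KO, 9.92, 9.84 and 10.02 in exercised WT and 10.02, 10.13 and 10.16 in KE. It differed by -0.24 in KO versus WT (standard error 0.09, limma adjusted p = 0.847), although the arrays overlapped, and by -0.21 (adjusted p = 0.908) within slide 1. Pcdhb20 was at 9.94, 9.90 and 9.88 in WT and 9.85, 9.74 and 9.63 in KO, a difference of -0.17 (standard error 0.08, limma adjusted p = 0.847). With the slide as a block this difference was -0.11 (limma adjusted p = 0.9775). Among the alpha probes the smallest p in KO versus WT were those of Pcdha8, at -0.13 (limma adjusted p = 0.849), and Pcdha12, at -0.34 (adjusted p = 0.851). With the slide as a block, Pcdha8 differed by -0.02 and Pcdha12 by -0.15 (limma adjusted p = 0.9998 for both).

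The swimming by genotype interaction asked whether swimming shifted a gene differently in KO and in wild-type mice. Pcdhb21 differed by -0.25 in exercised WT versus WT and by 0.17 in KE versus KO, and the interaction was 0.42 (standard error 0.12, limma adjusted p = 0.543). It was 0.39 (adjusted p = 0.382) with the slide as a block. Without the slide in the model, it lay between 0.36 and 0.50 when any 1 array was left out. The second Pcdhb6 probe was at 7.09, 7.22 and 7.30 in WT, 7.25, 7.50 and 7.35 in KO, 7.21, 7.44 and 7.45 in exercised WT and 7.20, 7.21 and 7.25 in KE. Its interaction was -0.32 (standard error 0.12, limma adjusted p = 0.588), and it kept an unadjusted p under 0.05 in 6 of the 12 fits that left out 1 array, against 12 of 12 for Pcdhb21. The second Pcdhb6 probe listed no RefSeq transcript. The first Pcdhb6 probe, the brighter, lay between 9.02 and 9.41 over all arrays and its interaction was -0.03, so the probes of this gene disagreed. Among the alpha probes the smallest p in the interaction was that of the second Pcdhac2 probe, at -0.12 (limma adjusted p = 0.796), followed by Pcdha8 at 0.14 (adjusted p = 0.863).

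**Figure D5:**
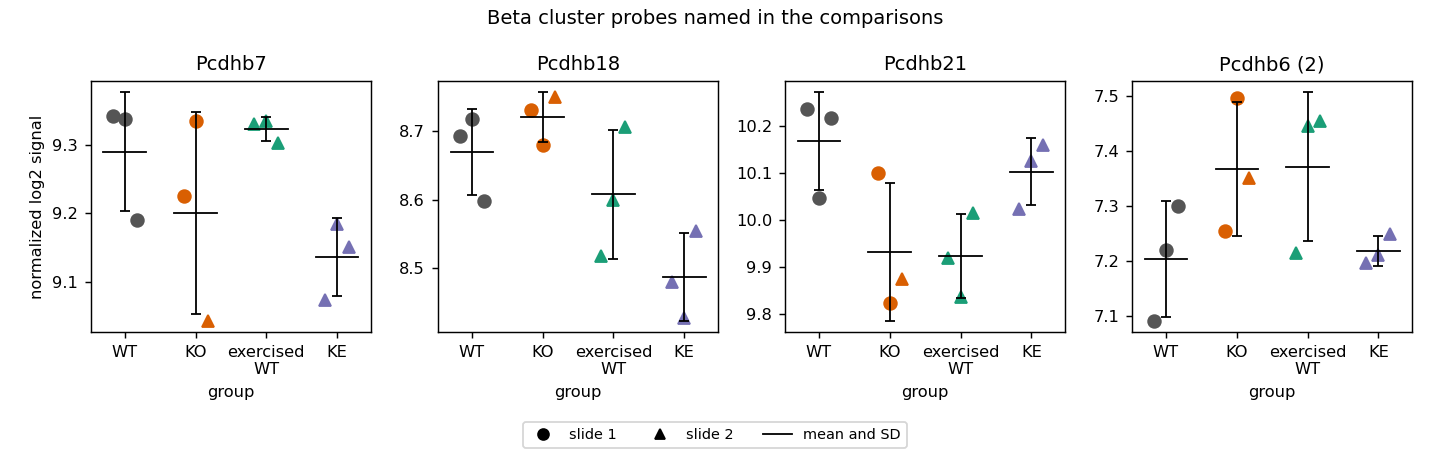
Normalized log2 signal of 4 beta probes on each array, with groups on the x axis, a circle for slide 1, a triangle for slide 2, and the mean with its SD (n = 3) in black; each panel has its own axis, which does not start at 0. Pcdhb18 is lowest in KE, Pcdhb7 separates exercised WT from KE, and Pcdhb21 is low in KO and exercised WT but not in KE.

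The 2 tested gamma probes, which by their listed transcripts both read RNA shared by gamma isoforms, gave unlike answers. The first probe named Pcdhga9 along the chromosome was at 7.97, 8.11 and 8.04 in WT, 8.15, 7.77 and 8.44 in KO, 8.44, 8.70 and 8.25 in exercised WT and 8.23, 8.34 and 8.37 in KE. Every array of slide 2 lay above every array of slide 1, KO replicate 3 included. The same held for 3664 of the 35230 tested probes and for 2 of the 29 members, the other being the first Pcdhb6 probe. The first Pcdhga9 probe differed by 0.42 in exercised WT versus WT (standard error 0.16, limma adjusted p = 0.141), and by -0.06 (standard error 0.23, adjusted p = 0.971) once the slide was in the model. The second, which is the brighter, was at 15.21, 14.99 and 15.04 in WT, 15.05, 15.16 and 14.92 in KO, 14.94, 15.07 and 15.02 in exercised WT and 14.89, 14.95 and 14.99 in KE. It differed by -0.07 in exercised WT versus WT (limma adjusted p = 0.581) and by -0.14 in KE versus WT (adjusted p = 0.260). The pair disagreed in sign in KO versus WT, KE versus KO, exercised WT versus WT and KE versus WT. In KE versus exercised WT both lay lower in KE, by -0.15 (limma adjusted p = 0.892) and -0.07 (adjusted p = 0.905). No single gamma isoform was tested.

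The genes that select protocadherin promoters were compared in the same fits. The list held CTCF, subunits, loaders and releasers of cohesin, DNA methyltransferases, Tet enzymes and repressors, with 21 genes and 40 tested probes. The regulators were on average steady, with a mean log2 signal between 10.40 and 10.51 on the 12 arrays. At an unadjusted p under 0.05, 6 of the 40 probes were lower and 0 higher in KE versus KO. The counts were 6 lower and 2 higher in exercised WT versus WT, 10 and 1 in KE versus WT, 4 and 1 in KE versus exercised WT, and 0 and 2 in KO versus WT. Over all tested probes 13.0% were lower in KE versus KO, 14.2% in exercised WT versus WT and 17.9% in KE versus WT. In either direction the share was 6.71% in KE versus exercised WT and 5.47% in KO versus WT. In the model with the slide the counts were 2 and 2 in KE versus KO, 0 and 1 in KE versus WT and in exercised WT versus WT, and 5 and 1 in KE versus exercised WT. The shares of all probes in that model, in either direction and the same order, were 9.06%, 4.91%, 6.17% and 10.3%. None met the screening criterion or had an adjusted p under 0.05 (0 of 40 in every comparison), and the median difference was -0.08 in KE versus KO, beside -0.04 for all probes, and -0.0154 with the slide. A probe of Wapal, the older symbol of Wapl, which releases cohesin from chromatin, was at 10.18, 10.27 and 9.94 in KO, 10.04, 10.02 and 10.09 in exercised WT and 9.80, 9.70 and 9.81 in KE. It differed by -0.36 in KE versus KO (standard error 0.08, limma adjusted p = 0.122) and by -0.28 in KE versus exercised WT (adjusted p = 0.640), and with the slide by -0.17 (adjusted p = 0.542) and -0.28 (adjusted p = 0.238). Nipbl, which loads cohesin, differed by -0.20 in KE versus KO (limma adjusted p = 0.156), with or without the slide in the model. Dnmt1, the maintenance DNA methyltransferase, differed by 0.14 in KE versus exercised WT (limma adjusted p = 0.676).

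Partners and processing enzymes of the proteins showed differences in both directions. The list held kinases and actin regulators that bind the cytoplasmic part, secretases that cleave it and motors that carry it, with 23 genes and 48 tested probes. In KE versus KO 5 probes were higher and 4 lower at an unadjusted p under 0.05. The counts were 7 and 3 in exercised WT versus WT, 9 and 5 in KE versus WT, and 1 and 1 in both comparisons of genotypes. Over all tested probes the shares in either direction were 21.1%, 25.9% and 30.4% in the first 3 of these. They were 5.47% in KO versus WT and 6.71% in KE versus exercised WT. In the model with the slide the counts were 1 and 2, 1 and 1, and 0 and 1 in the same first 3 comparisons. The shares of all probes there were 9.06%, 6.17% and 4.91%. None (0 of 48) had an adjusted p under 0.05. Cyfip1, of the WAVE complex, was at 9.66, 9.54 and 9.63 in KO and 9.98, 10.10 and 9.97 in KE, a difference of 0.41 (standard error 0.10, limma adjusted p = 0.139) that was 0.38 (adjusted p = 0.482) with the slide. Abi2, of the same complex, differed by 0.23 in KE versus KO (limma adjusted p = 0.157), and by 0.13 (adjusted p = 0.720) with the slide. Nckap1, also of that complex, differed by 0.15 in KE versus exercised WT (limma adjusted p = 0.741). A probe of Kif5b, a kinesin motor, passed the screening criterion in KE versus KO (1.23), exercised WT versus WT (1.74) and KE versus WT (1.94), where the fit with slides gave -0.24, -0.46 and -0.25. It was at 7.36 and 7.25 in the KO mice of slide 1 and at 9.50 in KO replicate 3. Ptk2b, a focal adhesion kinase, was at 5.82, 6.41 and 7.19 in exercised WT and 5.33, 5.97 and 5.86 in KE, a difference of -0.75 (limma adjusted p = 0.735), and it was highest on the exercised WT array on which the striatal list was highest. The part of that list in the result was not tested.

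The non-clustered protocadherins, which are single genes that do not belong to the 3 clusters, served as relatives. All 12 genes were tested, with 30 probes, and their mean log2 signal lay between 10.96 and 11.20 over the 12 arrays. At an unadjusted p under 0.05, 0 probes were higher and 1 lower in KE versus KO. The counts were 1 and 3 in exercised WT versus WT, 0 and 4 in KE versus WT, 1 and 2 in KO versus WT, and 0 and 2 in KE versus exercised WT. In the interaction 4 were higher and 0 lower, beside 7.76% of all probes in either direction. Over all tested probes 13.0%, 14.2% and 17.9% were lower in the first 3 of these comparisons. In either direction the share was 5.47% in KO versus WT and 6.71% in KE versus exercised WT. In the model with the slide the counts were 0 higher and 0 lower in KE versus WT, and 1 higher and 0 lower for both exercised WT versus WT and KE versus KO. The shares of all probes there, in either direction and the same order, were 4.91%, 6.17% and 9.06%. The median difference of the list was -0.07 for exercised WT versus WT and -0.02 for KE versus KO, and it turned to 0.07 and 0.03 with the slide. A dim probe of Pcdh1 was at 4.59, 5.53 and 4.32 in exercised WT and 3.26, 4.07 and 4.09 in KE, and it met the screening criterion in KE versus exercised WT at -1.004 (standard error 0.38, limma adjusted p = 0.706). A probe of Pcdh15 differed by -0.42 in the same comparison (limma adjusted p = 0.730).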

How the data were processed

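The authors deposited, for 12 single-color arrays, the scanner output, in which the values are intensity after background subtraction by Agilent Feature Extraction 10.7.1.1 (named in the submitters' processing notes), and a table of log2 values that they quantile-normalized in GeneSpring. Their 4 comparison lists hold fold changes and p-values beside 24 columns of repeated sample values, and were left out. Groups and replicate numbers were read from the sample titles and slides from the scanner output.

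Here, spots called outliers were dropped, and the processed signal was log2-transformed, averaged over the spots of a probe and quantile-normalized. The software's detection call in every array of 1 or more groups was required for a test. Group means were compared with limma 3.58.1 (R 4.3.3), with Benjamini-Hochberg adjustment over all tested probes, and the procedure was tested on simulated data. A group has 3 arrays, which limits the precision, and p-values measure the spread between these samples only. How many of all probes do not overlap was counted between the slides only, and not between groups. The members, the gene lists and the tests were chosen with earlier results of these data known. By rule, the text names in each comparison the 2 probes of each cluster with the smallest p, the C-type isoforms and probes past the screening criterion. Pcdhb14 and Pcdhb17 were named after their values were seen. Pcdha9, Pcdhb2, Pcdhb9, Pcdhb13 and Pcdhb15 are also given with values beyond this rule.

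The alternatives, with 1 choice changed at a time, were the slide as a block, a replicate block, normexp background correction (offset 50), 75th percentile scaling, the deposited normalized table, detection on all 12 arrays or no detection filter, the methods' t-test, gene averages and leaving out each array. Figures were drawn with matplotlib 3.10.9. No sequences are printed here.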

Additional observations from a re-analysis of the deposited data

Results flagged for a closer look

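For 2 beta probes the swimming difference in KO mice and that in wild-type mice differed by the interaction test at an unadjusted p under 0.05, both without and with the slide in the model, and neither passed after adjustment over all probes. They were 6.90% of the 29 tested members, beside 7.76% of all probes without the slide and 10.9% with it. The interaction was 0.42 for Pcdhb21 (limma adjusted p = 0.543). Pcdhb21 was lower in 3 of 3 exercised WT mice, all on slide 2, than in every WT mouse, all on slide 1. The interaction was -0.32 for the second Pcdhb6 probe (limma adjusted p = 0.588), which was lower in 3 of 3 KE mice than in every KO mouse. That probe listed no RefSeq transcript, and the interaction of the first Pcdhb6 probe, the brighter, was -0.03. How many of all probes separate the groups in these ways was not counted. When any 1 array was left out, without the slide in the model, Pcdhb21 kept an unadjusted p under 0.05 in 12 of 12 fits. The second Pcdhb6 probe did in 6 of 12. With normexp background correction neither had an unadjusted p under 0.05. No member was compared for samples far from the others of its group, since each group has 3 arrays.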

How the results depend on the processing

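The number of members with an unadjusted p under 0.05 depended most on the slide. With the slide as a block it was 1 instead of 7 in KE versus KO, 0 instead of 1 in KO versus WT, 1 instead of 10 in exercised WT versus WT and 0 instead of 9 in KE versus WT. In the same fit the alpha medians were -0.0412 in KE versus KO, -0.0064 in exercised WT versus WT and -0.0242 in KE versus WT, the beta median was -0.0019 in KE versus WT, and the gamma medians were -0.0505, 0.0288 and -0.0785 in those 3 comparisons. With normexp the alpha medians were -0.24 in exercised WT versus WT and -0.22 in KE versus WT, the gamma median in KE versus WT was 0.16, and the counts were 0 in KO versus WT, 2 in KE versus exercised WT and 1 in the interaction. Without the detection filter the gamma interaction median was -0.23. The count in KE versus exercised WT was 2 with 75th percentile scaling. The methods' t-test gave 3 in KE versus KO, 0 in KO versus WT and 2 in KE versus exercised WT, and averages per gene gave 2 in KO versus WT and 1 in the interaction. The cause of these shifts was not tested. Over the alternatives that kept all arrays, 38 of 53 counts and 148 of 159 medians moved by less than the tolerance, which was 1.5 times for a count and 1 SD within a group for a median.

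Replicate numbers did not pair the samples: same-numbered arrays correlated between -0.19 and 0.25 in their deviations from the group means, over 0.1 in 4 of 18 pairs. With the replicate block the counts were 2 in KO versus WT and 3 in KE versus exercised WT.

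When any 1 array was left out, the counts ranged from 5 to 12 in KE versus KO, 6 to 12 in exercised WT versus WT and in KE versus WT, 0 to 3 in KO versus WT, 1 to 4 in KE versus exercised WT and 1 to 4 in the interaction. The highest counts in KE versus KO and exercised WT versus WT were those without KO replicate 3. The alpha median in KO versus WT ranged from -0.168 to 0.0402 and the beta median in KE versus KO from -0.132 to -0.0414. The screening criterion was met in 3 cases: Pcdhb1 at -1.15 in KE versus WT and Pcdhb19 at 1.33 in the interaction without the detection filter, where neither was well above background on any array, and Pcdhb5 at 1.096 in KE versus exercised WT without KE replicate 1.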
